A study of Mus musculus with 39 samples.

Results

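Gene expression under a high fat diet with 5 µg of the formulation KAL was set against the low fat diet in cells of mouse brown fat. The comparison used 10 of the 39 arrays of the series, 5 of HF5 (high fat, high sucrose diet with 5 µg of KAL) and 5 of LFC (low fat control diet). These are all the arrays of both diets at Week 3, 9, 12, 15 and 18, with 1 array per diet and week, and the arrays were paired by week. The question was which genes stay away from the low fat level under this dose. All mice were C57BL/6J, a common laboratory strain, weaned at 3 to 4 weeks of age. The low fat diet had 10% of its calories from fat and the high fat diet 60%, with added sucrose. KAL is an aqueous botanical formulation given with the high fat diet. The 5 arrays of HFC, the high fat diet without KAL, at the same weeks are given beside HF5. By their labels the samples hold macrophages that infiltrate brown fat, and the labelled material is the stromal vascular fraction, which remains once fat cells are taken away. They do not say whether the RNA of 1 array came from 1 mouse or from several.

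The stromal vascular fraction of fat holds endothelial cells of the blood vessels, fibroblasts, fat cell precursors, macrophages, lymphocytes and other leukocytes. Brown fat burns fatty acids for heat, using the uncoupling protein Ucp1, and it makes new fatty acids from glucose with enzymes such as Acly, Fasn and Scd1. In general, diets rich in fat lower the transcripts of this synthesis, which are driven by the factors SREBP and ChREBP. Endothelial cells are recognised by the receptors Kdr and Tie1, and interferons switch on a common set of genes in most of these cell types.

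The labelled cell type was checked against its markers. Of 22 macrophage markers 21 were tested, and 14 were well above background on all 10 arrays, among them Adgre1 (a surface receptor of macrophages), Csf1r (the receptor of the macrophage growth factor) and Cd68. Markers of other cells were as plain. Of the general adipocyte list 19 of 20 genes, of the endothelial list 13 of 16 and of the skeletal muscle list 11 of 17 were well above background on all 10 arrays. Ucp1 was well above background on all 10 arrays too. Transcripts of fat cells, vessels and muscle were thus measured beside those of macrophages. In such bulk samples fewer cells of a type and less RNA per cell cannot be told apart.

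Arrays that stand apart are described before the results. The titles of 4 of the 10 arrays carry BA or BAT written as 1 unbroken word, while the titles of the other 6 have the letters B and A apart. The labels do not say what either form means. The 4 arrays are HF5 at Week 9 and Week 15 and LFC at Week 12 and Week 18. They were the brightest arrays of the comparison, with a 75th percentile of spot intensity of 310 to 1290, against 24.1 to 198 on the other 6 arrays. At Week 3 neither array has the unbroken form. At the other 4 weeks 1 array of the pair has it, in HF5 at Week 9 and Week 15 and in LFC at Week 12 and Week 18. The weekly differences followed this. Over the 17928 genes tested, the difference of HF5 minus LFC at Week 9 correlated with that at Week 15 (Pearson's r 0.64) and went against that at Week 12 (r -0.69) and Week 18 (r -0.47). Week 12 and Week 18 correlated with each other (r 0.51), and Week 3 had r of -0.06 to 0.21 with the other weeks. These correlations are across genes within single pairs of arrays and describe the arrays only. Since the titles are balanced over the diets, a mean over the 5 weeks holds both orientations, and a gene with 1 direction in all 5 weeks kept it under both.

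**Figure D1:**
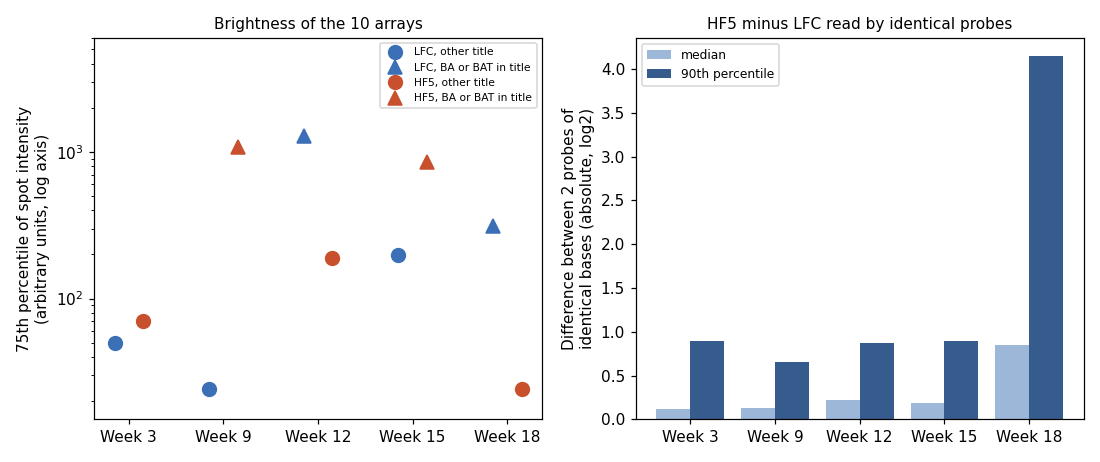
Left, 75th percentile of spot intensity (arbitrary units, log axis) on each LFC (blue) and HF5 (red) array by week, with triangles for arrays titled BA or BAT. Right, how far 2 probes with the same 60 bases disagreed on HF5 minus LFC (absolute log2 difference), as median and 90th percentile over the pairs of probes. The titled arrays lie at 310 to 1290, and the disagreement at Week 18 has a median of 0.85 against 0.12 to 0.22 at the other weeks.

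The array design holds probes of identical sequence under different names, which measure the precision of each week without any further array. Among the probes tested there were 811 pairs with the same 60 bases. Their readings of HF5 minus LFC differed by a median of 0.12 on the log2 scale at Week 3, 0.13 at Week 9, 0.22 at Week 12 and 0.19 at Week 15. At Week 18 the median was 0.85, and 45.1% of the pairs differed by more than 1, against 4.57% to 8.75% at the other weeks. Single values at Week 18 are therefore the least precise of the 5 weeks. The HF5 array of Week 18 had the smallest share of spots well above background of the 10 arrays, 31.2%. The LFC array of Week 9 had a similar share, 32.3%, and the part of dim signal was not tested. Averaged over the weeks, the identical probes differed by a median of 0.26, with a 90th percentile of 1.06. The HF5 array of Week 12 had 18.6% of its spots marked as outliers by the scanner software, against at most 0.516% on the other 9 arrays, and marked spots were left out. As a consequence 3033 of the 17928 genes tested lacked a value in at least 1 week, and such genes could not be counted as having 1 direction in all 5 weeks.

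No gene passed the test. Of 24541 probes tested with limma, 0 differed between HF5 and LFC at an adjusted p under 0.05 (0% called), and no adjusted p lay below 1. Before adjustment 534 probes (2.18%) had a p under 0.05. The spread between weeks was large, with a median SD of 1.60 on the log2 scale over the 5 paired differences of a gene. All values below are therefore given as measured differences with their error, and no gene is called changed. A permutation of diets within the 5 pairs could give no exact two-sided p below 0.0625 for any single gene.

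The 5 weekly differences were then read for agreement of direction. Over 17928 genes, read from 1 probe each, 707 (3.94%) were lower in HF5 than in LFC in all 5 weeks and 77 (0.429%) were higher. Of these, 385 genes (2.15%) were lower and 42 (0.234%) higher with a mean difference of at least 2-fold. The excess of lower genes moved with the scaling. The median difference of all genes was -0.17 on the log2 scale with the 75th percentile as reference and -0.46 with the median as reference. Among probes, 63 were higher and 566 lower in all 5 weeks by at least 2-fold in the mean with the 75th percentile. Without Week 12, whose pair had a median of -1.27, there were 920 higher and 875 lower probes. The surplus of lower probes was thus absent without the Week 12 pair. Leaving that pair out also lets in probes whose Week 12 spots were marked as outliers. With marked spots kept and all 5 weeks used, there were 179 higher and 579 lower probes. These effects were not separated. Groups that do not overlap at all were rarer. Every HF5 array lay below every LFC array for 113 genes (0.630%), and above for 6 genes (0.0335%).

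Of 457 genes in 28 lists of pathways and cell types, 455 had a probe and 396 were tested. In all 5 weeks 20 of the 396 were lower in HF5 and 2 were higher, against 3.94% and 0.429% of all genes tested, so the share of list genes with 1 direction was near that of all genes. The 2 genes that were higher, Mcpt4 and Cpa3, both belong to the mast cell list. No list had a median of the same sign in all 5 weeks. The medians of the fat cell, thermogenic, oxidation and respiratory chain lists were above 0 at Week 9 and Week 15 and below 0 at Week 12 and Week 18. This is the order of the titles. At Week 3, where neither array has the unbroken form, they were above 0 too, at 1.44, 1.39, 2.10 and 1.45. Neutrophil and inflammatory genes had medians of -6.49 and -6.63 at Week 9 and of 4.37 and 2.39 at Week 18. The lists lowest in the mean were endothelial, T cell, natural killer and cytotoxic, interferon response, sterol synthesis and lipogenesis.

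**Figure D2:**
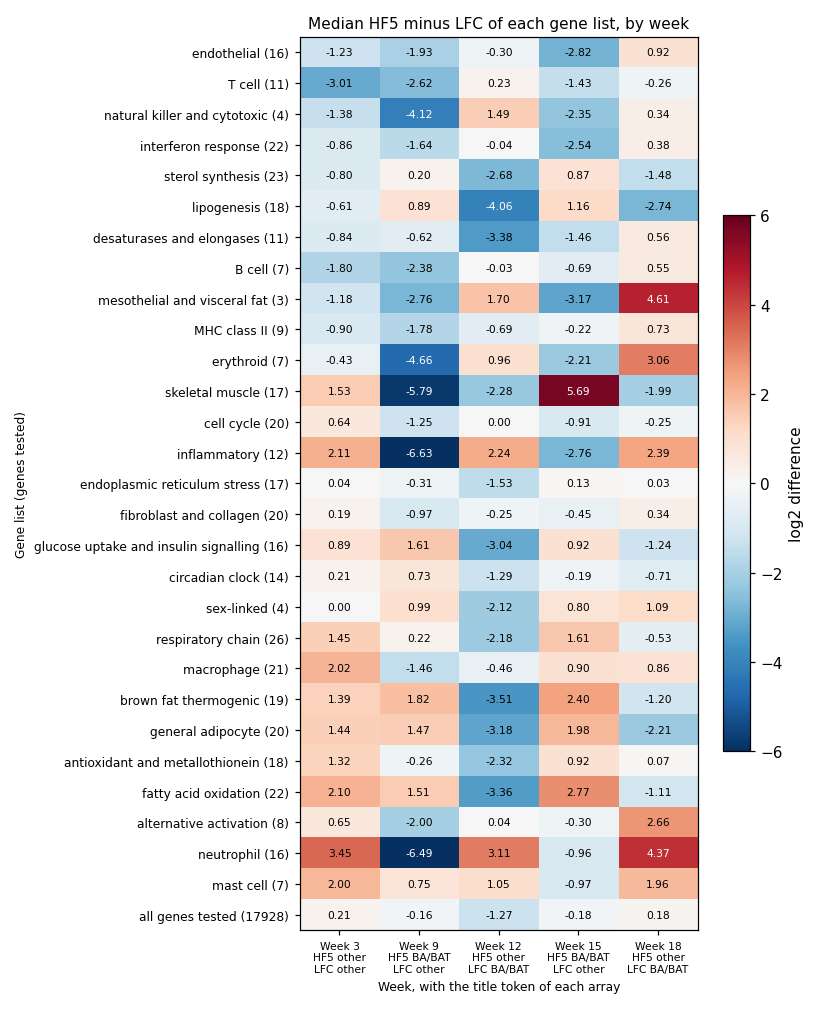
Median HF5 minus LFC (log2) over the tested genes of each list, by week, with the number of genes tested in brackets and the title of each array under the week. Lists run from the lowest to the highest mean, and the last row holds all genes tested. Fat cell and oxidation lists change sign with the titles, while the endothelial list is below 0 in 4 weeks and at 0.92 in Week 18.

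Endothelial genes had the lowest median of all lists, -1.21 on the log2 scale over 16 genes tested, beside -0.17 over all genes. In the mean over weeks 15 of the 16 were lower in HF5, against 60.3% of all genes tested, and 3 (Kdr, Tie1 and Robo4) were lower in all 5 weeks, against 3.94%. The list was at -1.23, -1.93, -0.30, -2.82 and 0.92 in Week 3, 9, 12, 15 and 18. In the 3 HF5 and 3 LFC arrays without BA or BAT in the title the median was -2.03, beside -0.28 over all genes. Of these arrays only those of Week 3 are a pair. With the title as a further term of the fit the median was -0.96, beside -0.16 over all genes. Over the weeks of 1 scan date it was -0.66, beside -0.30, so its size varied with the arrays and the fit used.

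Kdr, the main receptor for vascular endothelial growth factor, had the smallest spread between weeks of the 10 genes with the largest lower values picked by size. Its level, on a log2 scale relative to the 75th percentile of the array, was 4.62, 4.80, 3.33, 6.10 and 4.61 in LFC and 2.75, 3.08, 1.60, 3.52 and 2.86 in HF5 at Week 3, 9, 12, 15 and 18. HF5 lay below LFC in each week, and the groups overlapped only through the low LFC array of Week 12. The 5 differences ran from -2.58 to -1.72, with a mean of -1.93 ± 0.37 (SD, n = 5 pairs), or 3.81-fold lower. The limma interval of the difference was -3.17 to -0.69, with an adjusted p of 1. Kdr was well above background on all 10 arrays and had 1 probe. HFC was between the diets, at 4.23, 4.19, 2.22, 4.17 and 4.40. It was lower than LFC in 5 of 5 weeks, by a mean of 0.85 on the log2 scale, and HF5 was lower than HFC in 5 of 5 weeks, with a mean difference of -1.08 (SE 0.43).

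Tie1, a receptor of endothelial cells that works with the angiopoietin receptor Tek, was at 1.45, 1.56, -0.13, 2.68 and 0.27 in LFC and at -2.21, 0.29, -1.33, 0.00 and -0.87 in HF5. HF5 was again lower in each week, with a mean difference of -1.99 ± 1.13 (SD, n = 5 pairs). Only 3 of the 5 HF5 arrays were well above background for Tie1, against 5 of 5 in LFC. With normexp background correction the mean differences were -1.01 for Kdr and -0.49 for Tie1, so their size depended on how the background was treated. Robo4, which keeps vessels from leaking, differed by a mean of -1.40 ± 1.32, with values from -3.43 to -0.16. Tek was lower in 4 of 5 weeks (mean -1.31) and at 0.07 in Week 18. Pecam1, Cdh5, Emcn and Cldn5, which hold endothelial cells together or line them, had means of -1.07, -1.16, -0.79 and -0.92, with Week 18 above 0 for each. Pecam1 had no value in Week 12. Apln, a peptide of sprouting vessels, was the exception of the list at 0.11, and its second probe was at -1.24.

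**Figure D3:**
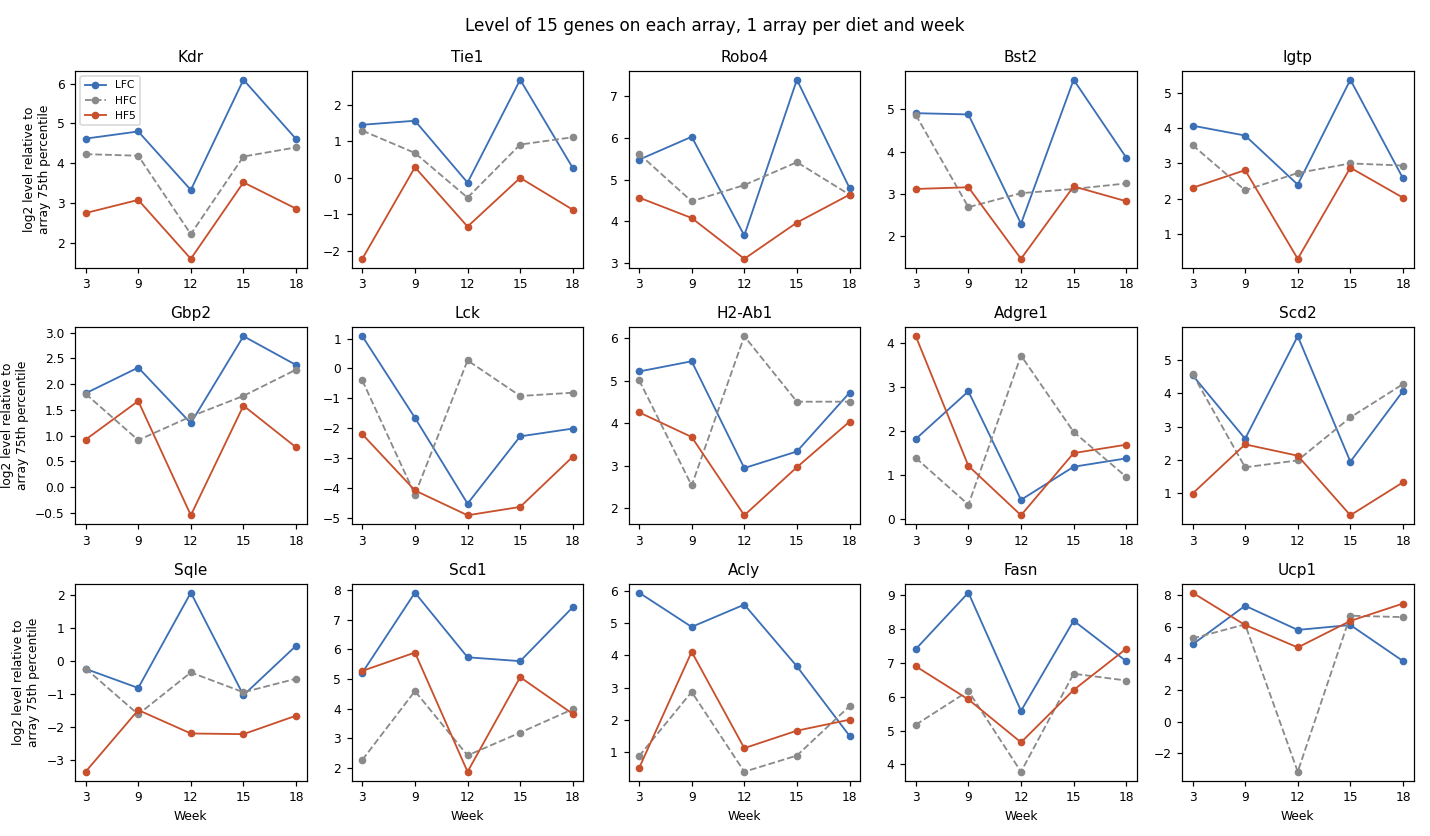
Log2 level relative to the 75th percentile of the array for 15 genes at Week 3, 9, 12, 15 and 18, with 1 array per point, in LFC (blue), HFC (grey, dashed) and HF5 (red). HF5 lies below LFC in each week for Kdr, Tie1, Robo4, Bst2, Igtp, Gbp2, Lck, H2-Ab1, Scd2 and Sqle, while Adgre1 and Ucp1 cross.

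Interferon response genes were the next list with several members of 1 direction. All 22 members were tested, 20 were lower in HF5 in the mean, against 60.3% of all genes, and 5 (Bst2, Igtp, Gbp2, Usp18 and Stat2) were lower in all 5 weeks, against 3.94%. The median of the list was -0.92, and -0.86, -1.64, -0.04, -2.54 and 0.38 by week. Interferons act on many of these genes through a promoter element, the ISRE. It was searched on both strands as GAAA, any 2 bases and GAAA in the 250 bases before each gene's start. It was found in 11 of 17 tested list genes with a promoter sequence, or 64.7%, against 3.46% of all 27025 genes with one. It was found in 1 of 16 sterol synthesis genes (Ebp) and in none of the 10 endothelial and 15 lipogenesis genes with a sequence. Of the 5 genes lower in all 5 weeks, Bst2, Igtp, Gbp2 and Stat2 carry the element, and Usp18 is not among the 11. Ifit3, whose mean difference was above 0, carries it as well. The promoters of Bst2, Igtp and Gbp2 are shown as examples. They are 250 bases from RefSeq on build GRCm38.p6, 5′ to 3′ on the strand of the gene, with matches in capitals.
Bst2 (chr8:71537473-71537722, minus strand): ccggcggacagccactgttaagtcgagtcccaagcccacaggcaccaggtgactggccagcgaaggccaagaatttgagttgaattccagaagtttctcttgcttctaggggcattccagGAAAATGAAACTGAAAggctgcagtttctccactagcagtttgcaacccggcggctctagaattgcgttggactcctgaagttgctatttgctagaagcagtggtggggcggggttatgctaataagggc
Igtp (chr11:58199306-58199555, plus strand): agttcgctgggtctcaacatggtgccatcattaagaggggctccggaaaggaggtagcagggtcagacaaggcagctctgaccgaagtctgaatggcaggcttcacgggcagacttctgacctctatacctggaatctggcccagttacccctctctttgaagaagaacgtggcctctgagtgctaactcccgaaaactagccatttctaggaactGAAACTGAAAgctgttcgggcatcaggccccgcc
Gbp2 (chr3:142620413-142620662, plus strand): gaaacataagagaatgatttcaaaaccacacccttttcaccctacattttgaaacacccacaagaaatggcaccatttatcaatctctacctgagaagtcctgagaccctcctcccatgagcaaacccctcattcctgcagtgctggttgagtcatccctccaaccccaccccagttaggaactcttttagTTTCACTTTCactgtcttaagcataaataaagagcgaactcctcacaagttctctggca
The match lies 34 bases before the start in Igtp and 59 in Gbp2, and Bst2 has 2 overlapping matches, the first 130 bases before the start. A match is a description of the letters only. The list was made of interferon response genes, so its share of matches describes the list and not HF5 against LFC.

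Bst2, the membrane protein tetherin that holds budding viruses, was at 4.91, 4.88, 2.30, 5.70 and 3.86 in LFC and at 3.12, 3.16, 1.47, 3.18 and 2.83 in HF5. The HF5 levels were below the LFC array of their own week but not below the low LFC array of Week 12. The mean difference was -1.58 ± 0.67 (SD, n = 5 pairs), or 2.99-fold lower. Igtp, an interferon-induced GTPase, was at 4.07, 3.79, 2.40, 5.37 and 2.58 in LFC and at 2.31, 2.81, 0.30, 2.88 and 2.03 in HF5. Its mean difference was -1.58 ± 0.80. Gbp2, a GTPase of the guanylate-binding family, differed by a mean of -1.25 ± 0.48, with values from -1.78 to -0.64. Usp18, which damps interferon signalling, differed by -1.16 ± 0.60, and Stat2 by -1.14 ± 0.99. The 95% interval of the difference in limma was -2.87 to -0.29 for Bst2, -2.90 to -0.25 for Igtp and -2.51 to just below 0 for Gbp2, and it included 0 for Usp18 and Stat2. These intervals are for single genes, and the adjusted p was 1 for all 5. With normexp background correction, another way to treat dim spots, Gbp2, Usp18 and Stat2 were at -0.50, -0.52 and -0.59. In HFC the same genes were lower than LFC in the mean as well (Bst2 -0.94, Igtp -0.75, Gbp2 -0.51, Usp18 -0.36 and Stat2 -0.25), each in 3 or 4 of 5 weeks.

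Other interferon genes did not keep 1 direction. Ifit3 and Mx1 had means above 0, at 0.64 and 0.65, with Mx1 at -5.03 in Week 9 and 6.91 in Week 12. Isg15 and Irf1 were at -1.17 and -1.29 in the mean and above 0 in Week 12 and Week 18. Irgm1, whose promoter also held 2 matches, was lower in 4 of 5 weeks (mean -0.73). Cxcl9, a chemokine induced by interferon gamma that is in no list and was chosen after its values were seen, was lower in all 5 weeks. It was at 1.61, 1.94, -0.05, 3.60 and 2.18 in LFC and at 0.01, 0.42, -3.42, -0.70 and -0.88 in HF5, with a mean difference of -2.77 (SE 0.64). Cxcl10 from the inflammatory list was lower in 4 of 5 weeks (mean -1.92).

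Lymphocyte genes were low on many arrays. Of 15 T cell genes 11 were tested, and none was well above background on all 10 arrays. Their median was -1.17, with 10 of 11 lower in the mean, against 60.3% of all genes tested. Lck, the kinase that starts T cell receptor signalling, was at 1.08, -1.65, -4.52, -2.27 and -2.01 in LFC and at -2.20, -4.08, -4.91, -4.63 and -2.95 in HF5. Cd8b1, a chain of the CD8 coreceptor, was at -1.08, -2.72, -5.02, -3.60 and -2.42 in LFC and at -3.88, -6.15, -5.37, -6.45 and -3.15 in HF5. Both genes were lower in all 5 weeks, against 3.94% of all genes tested, with means of -1.88 and -2.03, and their groups overlapped. Each was well above background on 4 of 5 LFC arrays and on 2 of 5 HF5 arrays, so the lower values are close to background, and with normexp the means were -0.81 for Lck and -0.70 for Cd8b1. Cd3d, which belongs to the T cell receptor complex, was at -4.49, -3.83, 0.81, -1.43 and 0.68 by week. The natural killer and cytotoxic list had 4 of 10 genes tested, with a median of -1.12. All 4 were lower in the mean, against 60.3% of all genes tested.

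Of 9 MHC class II genes of antigen presentation tested, 2 were lower in all 5 weeks, against 3.94% of all genes tested. They were H2-Ab1 and H2-DMb2, with means of -0.98 ± 0.53 and -0.67 ± 0.47. The medians of the list were -0.90, -1.78, -0.69, -0.22 and 0.73 by week, and its highest gene mean was 0.62. The other probes of H2-Ab1 had means of -0.94 and -0.70. The macrophage list had a median of 0.23 and no gene of 1 direction. Adgre1 was at 1.82, 2.90, 0.44, 1.19 and 1.38 in LFC and at 4.15, 1.21, 0.09, 1.5 and 1.69 in HF5, with a mean difference of 0.18 ± 1.45, which was -0.15 with median scaling and -0.07 with normexp background correction. Cd68 differed by 0.63 ± 1.88 and Csf1r by 0.00 in the mean. The limma interval of the difference for Adgre1 was -1.38 to 1.74.

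Genes of lipid synthesis varied with the week. In the lipogenesis list all 18 genes were tested, 14 were lower in the mean, beside 60.3% of all genes, and the median was -0.86, but the medians by week were -0.61, 0.89, -4.06, 1.16 and -2.74, which again follows the titles. Of the 18 genes 2, Scd2 and Mid1ip1, were lower in all 5 weeks, against 3.94% of all genes tested. Scd2, a desaturase that puts a double bond into newly made fatty acids, was at 4.55, 2.64, 5.72, 1.95 and 4.07 in LFC and at 0.99, 2.47, 2.13, 0.34 and 1.33 in HF5. The weekly differences were -3.55, -0.17, -3.59, -1.60 and -2.74, so Week 9 barely differed. The mean was -2.33 ± 1.45 (SD, n = 5 pairs), or 5.03-fold lower, the lowest mean among genes well above background on all 10 arrays with 1 direction. Mid1ip1, a partner of acetyl-CoA carboxylase, was 2.01-fold lower in the mean, and the groups did not overlap.

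Of 23 sterol synthesis genes, all tested, 20 were lower in the mean (median -0.89), beside 60.3% of all genes. Only 1, Sqle, was lower in all 5 weeks, near the share of 3.94% of all genes tested. The medians by week were -0.80, 0.20, -2.68, 0.87 and -1.48, and their order followed the titles as in lipogenesis. Sqle, the epoxidase that turns squalene toward cholesterol, was at -0.23, -0.81, 2.08, -1.03 and 0.47 in LFC and at -3.35, -1.48, -2.19, -2.21 and -1.65 in HF5. Each HF5 array lay below each LFC array. The mean difference was -2.27 ± 1.45, and Sqle was well above background on all LFC arrays and on 3 of 5 HF5 arrays. Elovl5, which elongates polyunsaturated fatty acids, differed by -1.36 ± 1.41 without overlap, and its second probe had a mean of -1.35. Hmgcs1, an early enzyme of the sterol path, had a mean of -0.17. The element TCACNCCAC, to which SREBP binds, was found in 1 of 16 sterol and 1 of 15 lipogenesis promoters (Hmgcs1 and Mlxipl), against 1.22% of all promoters.

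The classical lipogenic enzymes did not keep 1 direction in all 5 weeks. Scd1 was at 5.21, 7.91, 5.73, 5.60 and 7.42 in LFC and at 5.27, 5.89, 1.87, 5.06 and 3.82 in HF5. HF5 was at the LFC level in Week 3 (difference 0.06) and lower in the other 4 weeks, with a mean of -1.99 ± 1.76. Acly, which makes cytosolic acetyl-CoA, was at 5.94, 4.88, 5.57, 3.66 and 1.51 in LFC and at 0.51, 4.11, 1.13, 1.67 and 2.01 in HF5, with a mean of -2.43 ± 2.48. Fasn differed by -1.25 ± 1.37 and was lower in 4 of 5 weeks. Its second probe had a mean of -0.29, so the size of the difference depends on the probe.

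HFC gave the comparison for these enzymes, on the same LFC arrays. Scd1 in HFC was at 2.27, 4.59, 2.42, 3.19 and 3.98, lower than LFC in 5 of 5 weeks by a mean of -3.08 ± 0.42. HF5 was higher than HFC by 1.09 (SE 0.57), above it in 3 of 5 weeks. Acly was at -2.82 and Fasn at -1.82 in HFC, and HF5 was above HFC by 0.39 (SE 0.46) and 0.56 (SE 0.48). For Scd2 and Sqle the order of the diets differed from that of Scd1. HFC was nearer to LFC (Scd2 -0.60, Sqle -0.82) and HF5 was below HFC (-1.73, SE 0.67, and -1.45, SE 0.52). The lipogenesis list as a whole had a median of -1.88 in HFC and -0.86 in HF5, both against LFC.

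**Figure D4:**
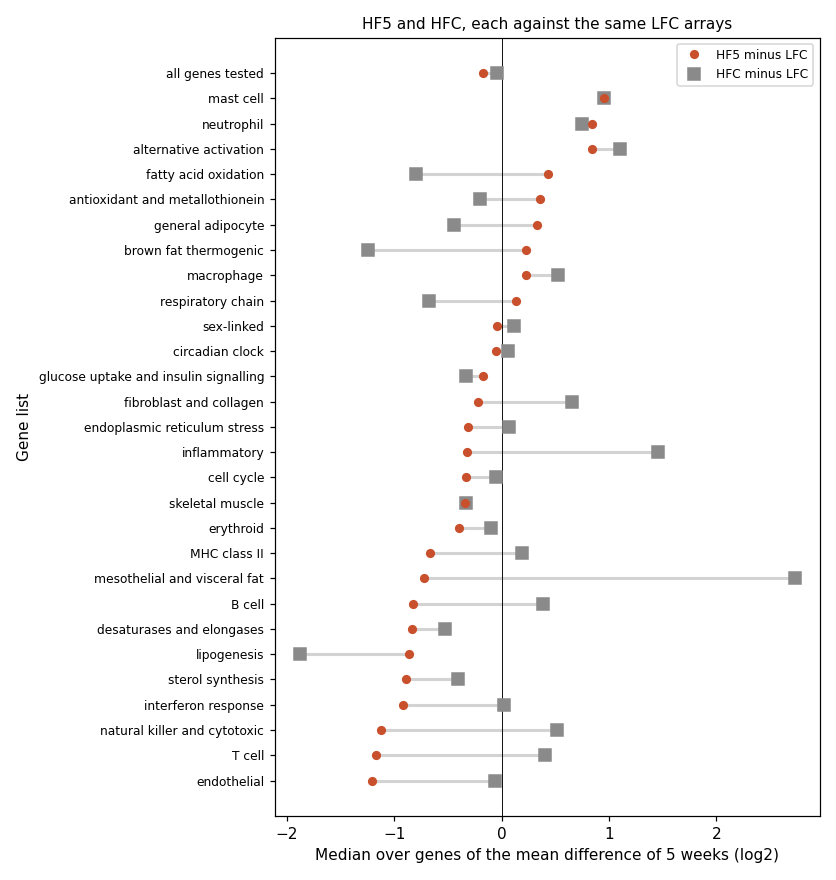
Median over the genes of each list of the mean difference of 5 weeks (log2), for HF5 minus LFC (red circles) and HFC minus LFC (grey squares), which share the LFC arrays. HF5 lies nearer to 0 than HFC for lipogenesis (-0.86 and -1.88) and below HFC for the endothelial list (-1.21 and -0.06) and the interferon response list (-0.92 and 0.02). By week, HFC minus LFC was 0.19, -1.53, 0.97, -1.70 and 1.62 for the endothelial list. For the interferon response list it was 0.20, -1.58, 2.77, -1.93 and 1.04, so neither list stayed near 0 in HFC.

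Neither comparison with HFC called a probe in limma. Of 24233 probes 0 differed between HFC and LFC at an adjusted p under 0.05 (0% called, 1.69% at an unadjusted p under 0.05), and of 25750 probes 0 differed between HF5 and HFC (0% called, 7.27% unadjusted, smallest adjusted p 0.679). The HF5 and HFC arrays of each week share a scan date, while HF5 and LFC share one at Week 12, 15 and 18. Single genes were lower in HFC than in LFC in all 5 weeks in 2.95% of genes tested and higher in 1.43%. With a mean difference of at least 2-fold the shares were 0.474% lower and 0.759% higher. The HFC array of Week 9 also carries BA or BAT in its title, and that of Week 12 had 11.1% of its spots marked as outliers. HF5 was lower than HFC in all 5 weeks for 8 of 16 endothelial genes, against 5.33% of genes tested (2.55% by at least 2-fold in the mean), and for none was it higher. It was higher than HFC in all 5 weeks for 5 of 19 thermogenic and 4 of 22 fatty acid oxidation genes, against 1.86%. Both lists were below LFC in HFC, with medians of -1.24 and -0.80, and above LFC in HF5, with 0.23 and 0.43. By week the medians of HFC minus LFC were -0.16, 1.69, -4.99, 0.03 and -2.25 for the thermogenic list and 0.17, 1.52, -4.02, 0.43 and -2.43 for the oxidation list. The low values thus lay in Week 12 and Week 18, where the LFC array has the unbroken title and the HFC array does not. Other lists also stood apart in HFC at Week 12, with medians against LFC of 8.57 for inflammatory and 7.73 for mesothelial genes. Of the mesothelial list 3 genes were tested, and its median was 4.65 at Week 18. Titles are not balanced between HFC and either of the other diets. The part of the titles or of the cell make-up of these arrays in the medians was not tested. With median scaling the thermogenic median of HF5 was -0.10, so its direction depends on the scaling.

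Ucp1 was at 4.88, 7.33, 5.80, 6.11 and 3.83 in LFC, at 8.16, 6.11, 4.69, 6.37 and 7.47 in HF5 and at 5.26, 6.15, -3.18, 6.70 and 6.61 in HFC. The low HFC value of Week 12 stands far from the other 14. HF5 was above LFC in 3 of 5 weeks, with a mean difference of 0.97 ± 2.35. Adipoq, the fat cell hormone adiponectin, differed by 0.55 ± 2.92, above LFC at Week 3, 9 and 15 and below at Week 12 and 18. Neither gene can be said to differ or to be alike on these arrays.

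The genes with the largest differences were picked by size, from those well above background on all 10 arrays with 1 direction. There were 457 such genes lower in HF5 and 8 higher, of 8601 well above background on all 10 arrays. The 10 lowest mean differences were those of Scd2, XR_033046, Gvin1, Lphn2, Gm3636, Rnf125, Gm9602, Kdr, Abcc5 and Nsf. Lphn2 (now Adgrl2), an adhesion receptor, was at 0.54, 0.38, -0.18, 1.68 and 0.77 in LFC and at -1.52, -1.04, -2.73, -1.46 and -0.54 in HF5. The groups did not overlap, and the mean difference was -2.10 ± 0.77, or 4.28-fold lower. HFC was at 0.08, -0.39, -0.16, 0.27 and 0.72, and HF5 was lower than HFC in 5 of 5 weeks. With normexp the mean difference from LFC was -1.06 for Lphn2, -0.57 for Abcc5 and -0.96 for Nsf. Gvin1, a very large GTPase induced by interferon, differed by -2.12 ± 1.80, and its other probes by -1.67 and -1.38. Abcc5, a transporter of cyclic nucleotides, differed by -1.90 ± 1.14, and its second probe by -0.99. For Nsf, which drives vesicle fusion, the second probe was at 0.06, against -1.83 ± 1.03 for the probe used, so the probes disagree.

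**Figure D5:**
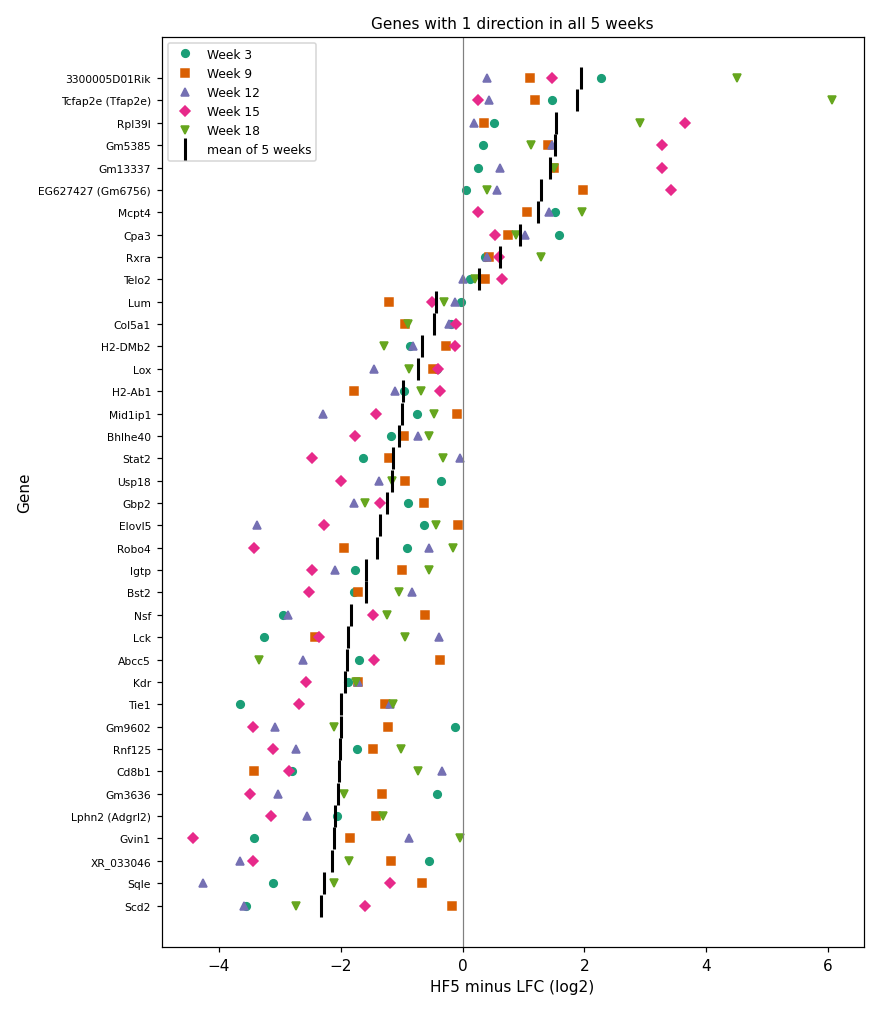
HF5 minus LFC (log2) in each of 5 weeks (coloured marks) and their mean (black bar) for the genes picked by size and the list genes with 1 direction in all 5 weeks, 28 lower and 10 higher. The Kdr marks lie within -2.58 to -1.72, while Tcfap2e rests on Week 18 (6.06).

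Probe sequences are shown for names that may read the same transcripts. XR_033046, Gm3636 and Gm9602, all predicted genes, had near-equal values, and the array annotates Gm9602 and Gm3127 as similar to the same predicted gene. The Gm3636 probe shares 35 of 39 aligned bases with that of Gm3127, and both genes lie on chromosome 14. A stretch of each is shown, 5′ to 3′ as on the array, with bases that differ from Gm3127 in capitals.
Gm3127: ttggaaaacttacccatgctgcatacttgt
Gm3636: gaaaacttacccatgctgcTtCGttgCtgt
Gm3636 was lower in all 5 weeks (-0.42, -1.32, -3.03, -3.50 and -1.95), and XR_033046 had much the same values (-0.55, -1.17, -3.66, -3.44 and -1.86). Gm9602, whose probe matched that of Gm3127 at only 12 of 25 bases, was at -0.13, -1.23, -3.08, -3.45 and -2.12. Gm3127 itself has 3 probes with the same 60 bases. They read -0.43, -0.64 and -0.58 in Week 3 and -0.06, 1.57 and -1.84 in Week 18. At Week 18 the readings of 1 sequence thus ran from -1.84 to 1.57, and only 2 of the 3 were below 0 in all weeks that had a value.

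The 8 genes higher in HF5 were 3300005D01Rik, Tcfap2e (now Tfap2e), Rpl39l, Gm5385, Gm13337, EG627427 (now Gm6756), Rxra and Telo2. Gm5385 and Gm13337 are annotated on the array as similar to 3-phosphoglycerate dehydrogenase. This enzyme, Phgdh, opens the path that makes serine from a glycolytic intermediate. The Gm13337 probe is identical to that of Gm5385 over 53 aligned bases, and a probe of Phgdh shares 54 of 59 bases with it. The 30 bases shown are the start of the Gm5385 probe and the aligned start of the Gm13337 probe.
Gm5385: agaggggatcgcagaaccagggcatctgcc
Gm13337: atcgcagaaccagggcatctgcctgaacta
With so many shared bases, these probes may not tell Phgdh from its copies. Gm5385 was higher in each week (0.34, 1.40, 1.46, 3.28 and 1.13), with a mean of 1.52 ± 1.08. The 3 probes of Phgdh, which was named after its values were seen, had means of 1.17, 1.62 and 2.18. They read -0.52, -2.57 and 3.93 in Week 18, in the same order, and all 3 were above 0 in the other weeks. The other 2 probes of Phgdh did not align with that of Gm5385. HFC was higher than LFC as well, with 1.42 for Gm5385, and HF5 differed from HFC by 0.10 (SE 0.42).

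Of the remaining genes above LFC, 3300005D01Rik differed by 1.95 ± 1.58 (0.59 with normexp) and Rpl39l, a relative of a ribosomal protein, by 1.53 ± 1.63. The mean of Tcfap2e, a transcription factor of the AP-2 family, of 1.88 ± 2.39 rested on the LFC array of Week 18, where the difference was 6.06 against 0.25 to 1.46 in the other weeks. Rxra, the partner of many nuclear receptors, differed by 0.61 with the probe used and by 0.02 with its second probe. Telo2 differed by 0.27, and by -0.05 with median scaling. Below this size rule, the mast cell proteases Mcpt4 and Cpa3 were higher in all 5 weeks by means of 1.24 ± 0.64 and 0.95 ± 0.39. In HFC they were higher than LFC by 1.46 and 1.17, each in 4 of 5 weeks. Cpa3 was well above background on 3 of 5 LFC and 4 of 5 HF5 arrays, and with normexp background correction the means were 0.15 for Mcpt4 and -0.01 for Cpa3.

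Among the other lists, 3 of 20 genes tested of the fibroblast and collagen list were lower in all 5 weeks. They were Lum, Col5a1 and Lox, with means of -0.43, -0.47 and -0.73, beside -0.17 for all genes. Of 14 circadian clock genes tested 1 was lower in all 5 weeks, Bhlhe40, a repressor that responds to feeding and light, with a mean of -1.04. Of all genes tested 3.94% were lower in all 5 weeks. The lists of cell cycle, respiratory chain, fatty acid oxidation, insulin signalling, endoplasmic reticulum stress, antioxidant, neutrophil, erythroid, B cell, alternative activation and skeletal muscle genes held no gene of 1 direction. Muscle genes varied widely between weeks, with list medians of -5.79 at Week 9 and 5.69 at Week 15, and the summed level of the list ranged from 15.5 to 427 in LFC and from 23.0 to 792 in HF5, in units of the 75th percentile. The part of muscle RNA in the results at these weeks was not tested. Of 13 mesothelial markers, which would mark visceral fat, 10 were not tested because too few arrays were well above background, and Wt1 and Upk1b were not well above background on any of the 10 arrays.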

How the data were processed

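Arrays were Agilent mouse expression arrays of 1 colour, grouped by diet and week as the labels give them. Per the file headers, the deposited intensity values are background-subtracted signals of Agilent Feature Extraction 10.5.1.1 (the submitters' processing notes name 9.1), not normalized from array to array. A deposited table of the whole series gives log2 values after the authors' own normalization, set relative to the LFC array at the weeks used, and it served as 1 of the alternatives.

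From the log2 of each processed signal the 75th percentile of its array was subtracted. Spots marked as outliers were dropped and spots of a probe averaged. A probe entered the test if 5 or more of the 10 arrays had it well above background. The test was that of limma 3.58.1, run in R 4.3.3, with the week as a block, two-sided, and adjusted by Benjamini-Hochberg at 0.05. P-values measure the spread between weeks only, since no diet was repeated within a week. A gene was read from its tested probe with the highest mean signal. The named genes are the list members and, of genes well above background on all 10 arrays with 1 direction in all 5 weeks, the 10 lowest and up to 10 highest mean differences, plus a few named in the text as chosen after their values were seen. The members and lists were chosen with earlier results of these data known.

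The pairing was checked by the correlation of deviations from the group means. For HF5 and LFC it was over 0.1 in 1 of 5 weeks, 0.32 at Week 3. It was -0.58, -0.42, -0.36 and -0.32 at Week 9, 12, 15 and 18. Where arrays of a week deviate in opposite ways, pairing widens the spread of the differences. The block was kept as planned. In limma 534 probes had an unadjusted p under 0.05 with it and 687 without it. No 2 of the 10 arrays were copies (correlations 0.588 to 0.967). Arrays have no read depth, and their number limits the precision. The fit was tested on simulated data, in which moderate differences did not pass, so a lack of calls does not show a lack of differences. Alternatives were other normalizations, filters, blocks, tests and the leaving out of each week. Promoters come from RefSeq on GRCm38.p6, and newer gene names from the same assembly. Python 3.11.15 with numpy, pandas and matplotlib was used outside R.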

Additional observations from a re-analysis of the deposited data

Results flagged for a closer look

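In 3 of the 90 groups of 5 arrays tested (45 named genes in LFC and HF5), 1 array stood apart from the other 4 by Dixon's criterion. The groups are read from the same 10 arrays and are not independent, so their number cannot be set against chance. Rnf125 was at -1.26 in HF5 at Week 12, against 0.14 to 0.30 in the other HF5 arrays. Bst2 was at 1.47 in HF5 at Week 12, against 2.83 to 3.18. Tcfap2e was at -2.01 in LFC at Week 18, against 1.17 to 2.25. Both HF5 values are from the array with 18.6% of its spots marked as outliers. Its part in these values was not tested.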

How the results depend on the processing

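For HF5 against LFC and for HFC against LFC, 0 probes were called under every alternative. For HF5 against HFC 1 probe was called with median scaling and 0 under the others. Without the replicate block, that is, unpaired, 0 probes were called for HF5 against LFC, with 687 at an unadjusted p under 0.05; the block changed no call. Array weights raised this count to 5372, with 0 calls and a smallest adjusted p of 0.154 in limma.

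The count of 629 probes at least 2-fold apart in 1 direction in all weeks fell to 75 with normexp background correction and to 277 with probes well above background on all 10 arrays, and rose to 2475 over the 3 weeks of 1 scan date. Leaving out 1 week each gave 823 to 1795 probes, the most without Week 12; without Week 9 there were 1562 and without Week 18 there were 1410. Fewer weeks ask for less agreement, which raises the count by construction. With the marked spots kept there were 179 higher and 579 lower probes, and from the deposited log2 values 183 higher and 533 lower, against 63 and 566. Without Week 9 there were 392 higher and 1170 lower probes, and over the weeks of 1 scan date 527 and 1948.

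Of the values of single named genes, 8 changed sign and 929 did not. These were Telo2 (-0.05) with median scaling, Cpa3 (-0.01) with normexp, Adipoq (-0.65) over weeks of 1 scan date, Adgre1 with median scaling (-0.15) and with normexp (-0.07), and 3 genes when 1 week was left out. Adipoq then ranged from -0.12 (without Week 15) to 1.49, Cd68 from -0.02 (without Week 3) to 1.14 and Adgre1 from -0.36 (without Week 3) to 0.65. The cause was not tested. Probes of identical sequence disagreed most in Week 18, and the part of dim signal in this was not tested.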
